A study of Mus musculus with 16 samples.

Results

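The miR-130 and miR-301 family of the mouse was measured here through its 4 members on the array, mmu-miR-130a, mmu-miR-130b, mmu-miR-301a and mmu-miR-301b (the prefix for mouse is left out hereafter in most places), which were taken by name from the 611 mouse miRNAs with probes. RNA came from primary mouse embryonic fibroblasts (MEFs) of a mixed FVB/n and C57Bl/6 background, either WT or Ercc1-/-, grown to passage 3 (P3) or passage 7 (P7) in 20% O2, the usual culture atmosphere, or in 3% O2. ERCC1 is a subunit of the XPF-ERCC1 endonuclease, a DNA repair enzyme, and the study asked which miRNAs change as such cells are driven towards senescence. The 8 groups of genotype, passage and oxygen had 2 arrays each, 16 in all, and the study's methods state that both arrays of a group came from independent cell lines. The groups were WT P3 in 20% O2, WT P3 in 3% O2, Ercc1-/- P3 in 20% O2, Ercc1-/- P3 in 3% O2 and the same 4 combinations at P7, with no drug or transgene. Whether a line given replicate number 1 in one group is the line given that number in another is not given by the labels, and with so few lines per genotype a difference between genotypes cannot be told apart from a difference between lines.

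MiRNAs are short RNAs that guide Argonaute proteins to messenger RNAs, mostly through pairing of the seed near their 5′ end with the 3′ UTR of the target, and they lower the output of those targets. MiRNAs with the same seed can share targets, and are grouped into families for that reason. The miR-130 and miR-301 family has been studied in angiogenesis, adipogenesis, where miR-130 represses Pparg, and the remodelling of vessels and extracellular matrix. MiR-301a is made from within the gene for SKA2, a kinetochore protein, and miR-130b and miR-301b come from neighbouring hairpins.

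The sequences are shown because the seed is what makes these miRNAs a family, and because 1 other miRNA on the array carries it. Below, bases 2 to 8, the seed, are in capitals, each sequence is written 5′ to 3′, and sequences and positions are those of RefSeq for GRCm38.p6.

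mmu-miR-130a: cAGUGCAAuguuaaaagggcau

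mmu-miR-130b: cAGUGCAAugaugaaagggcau

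mmu-miR-301a: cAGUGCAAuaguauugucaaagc

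mmu-miR-721: cAGUGCAAuuaaaagggggaa

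The array names carry no arm, and 3 of the 4 members matched a mature entry for the 3′ arm, the arm that holds the shared seed. The mature sequence of miR-301b was not analysed here. MiR-130a lies at chr2:84741116-84741137 on the minus strand, with no other annotated gene across it. MiR-130b lies at chr16:17124071-17124092 on the minus strand, within 2610318N02Rik, and its hairpin and that of miR-301b are 257 bases apart. MiR-301a lies at chr11:87113054-87113076 on the plus strand, within Ska2. MiR-721 lies at chr5:136375777-136375797 on the minus strand, within Cux1. The seed was found in 7 of the 1738 mature sequences of the table, of which 4 were on the array: the 3 matched members and miR-721, which the rule does not count as a member. Laid base by base from the 5′ end against miR-130a, miR-130b had the same base at 20 of 22 positions, miR-301a at 12 of 22 and miR-721 at 15 of 21, so the probes for the first pair had to tell apart sequences that differ at few positions.

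Levels are given as log2 of the scaled signal, the processed signal of the scanner after the arrays were brought to a common mean log2 value of the 57 mouse miRNAs that all 16 arrays held above background. A level below 1.50, which is a signal of 2.82, was set to that floor. Such levels can be compared between arrays for 1 miRNA, not between miRNAs, since probes differ in brightness. A miRNA entered the test where some group had it above background on both of its arrays, which held for 3 of the 4 members and for 232 other miRNAs, 235 in all. In RNA from whole cultures, fewer cells that hold a miRNA and less of it per cell cannot be told apart.

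The arrays differed in signal. All arrays of replicate 1 were on slide 1 and all of replicate 2 on slide 2, and the mean log2 signal before scaling was 9.17 on slide 1 and 7.55 on slide 2. The array of replicate 2 of Ercc1-/- P7 MEFs in 20% O2 was the dimmest, with a mean of 5.80 against 6.98 to 9.77 at P3 and up to 9.29 at P7. It had 117 miRNAs above background, where the brightest array had 257, and its correlation with the other array of its group was 0.488, against 0.740 to 0.975 in the other 7 groups. P3 and P7 arrays lay in different rows of both slides, so passage and row cannot be told apart. Of the miRNAs listed as marks of other cell types, none of 5 for epithelium, 2 for endothelium, 2 for neurons and 1 for liver was above background on any array, while all 8 fibroblast miRNAs were on at least 1 array and 6 on all 16. Of 5 blood miRNAs 3 were above background on some array, but not miR-451 or miR-150, and their summed level reached at most 6.20 at P3 and ran from 3.82 to 6.61 at P7. Of 3 skeletal muscle miRNAs 1, miR-206, was above background on some array, with a summed level of 3.08 at P3 and 3.08 to 4.47 at P7. The lowest sums, 3.82 for blood and 3.08 for muscle, are those of lists with every miRNA set to the lowest level allowed. They are thus not measured levels. The part of other cell types in the results was not tested.

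The mmu-miR-130a level could be read throughout, as it was above background on all 16 arrays. At P3 its levels in replicates 1 and 2 were 10.37 and 10.38 in WT MEFs in 20% O2, 10.30 and 10.42 in WT MEFs in 3% O2, 10.33 and 10.32 in Ercc1-/- MEFs in 20% O2, and 10.23 and 10.27 in Ercc1-/- MEFs in 3% O2. The 8 P3 arrays thus lay within 0.19 of each other, whatever the genotype or oxygen. At P7 its levels were 9.88 and 9.56 in WT MEFs in 20% O2, 10.50 and 10.18 in WT MEFs in 3% O2, 9.98 and 7.68 in Ercc1-/- MEFs in 20% O2, and 9.74 and 9.67 in Ercc1-/- MEFs in 3% O2. The P7 arrays were more spread, and the lowest value was that of the dimmest array. Without it the 7 other P7 arrays lay between 9.56 and 10.50, and only the WT P7 array of replicate 1 in 3% O2 stood above all P3 arrays.

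The signal of mmu-miR-130b was low, and 13 of 16 arrays held it above background. At P3 its levels were 3.43 and 2.47 in WT MEFs in 20% O2, 4.09 and 4.26 in WT MEFs in 3% O2, 3.01 and 2.64 in Ercc1-/- MEFs in 20% O2, and 3.00 and 3.27 in Ercc1-/- MEFs in 3% O2. At P7 they were 3.42 and 4.13 in WT MEFs in 20% O2, 3.61 and 3.75 in WT MEFs in 3% O2, 3.41 and the floor of 1.50 in Ercc1-/- MEFs in 20% O2, and 4.29 and 4.38 in Ercc1-/- MEFs in 3% O2. The arrays not above background were those of replicate 2 in 20% O2 in both P3 groups and in Ercc1-/- P7 MEFs. The highest group mean was that of Ercc1-/- P7 MEFs in 3% O2 and the lowest that of Ercc1-/- P7 MEFs in 20% O2.

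The third member, mmu-miR-301a, was above background on 15 arrays. At P3 its levels were 6.57 and 6.61 in WT MEFs in 20% O2, 6.39 and 7.03 in WT MEFs in 3% O2, 6.60 and 7.10 in Ercc1-/- MEFs in 20% O2, and 6.31 and 6.93 in Ercc1-/- MEFs in 3% O2. At P7 they were 6.39 and 5.66 in WT MEFs in 20% O2, 5.97 and 5.91 in WT MEFs in 3% O2, 6.63 and 3.21 in Ercc1-/- MEFs in 20% O2, and 4.70 and 5.54 in Ercc1-/- MEFs in 3% O2. The value of 3.21, on the dimmest array, was not above background. Of the P7 groups, both in 3% O2 lay wholly below the P3 range of 6.31 to 7.10, and in both groups in 20% O2 1 array lay within it.

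The fourth member, mmu-miR-301b, was not above background with any of its 4 probes on any of the 16 arrays. Its signal before scaling ran from -2.18 to 0.869, so that all its levels were at the floor and no comparison could be made. Its neighbour miR-130b was above background on most arrays.

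**Figure D1:**
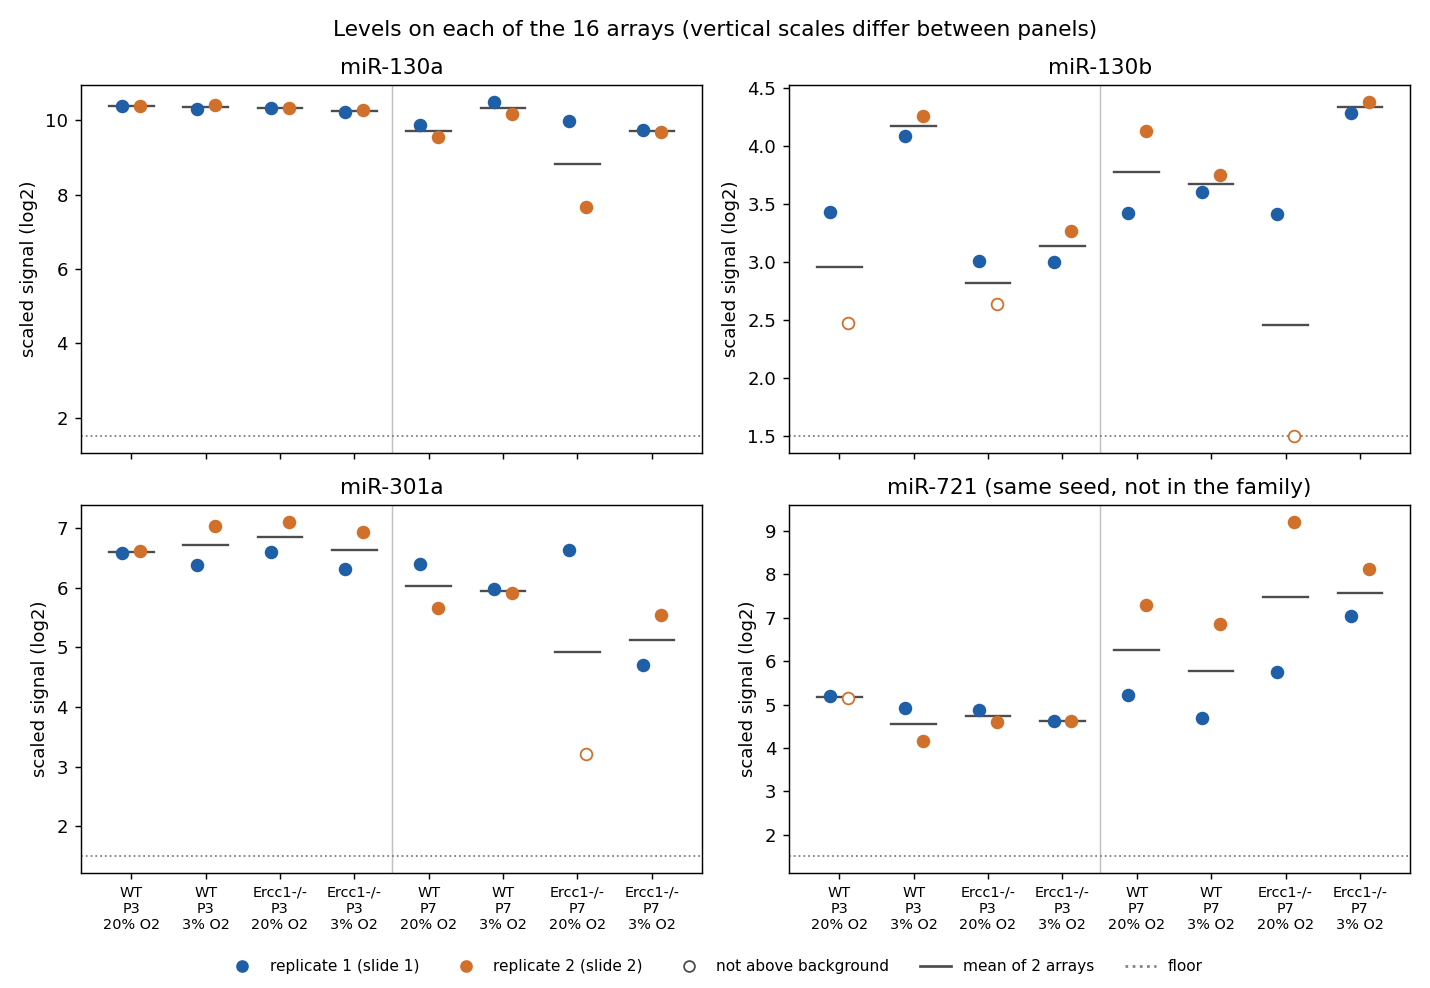
Level (log2 of the scaled signal, vertical axis) of miR-130a, miR-130b, miR-301a and miR-721 on each of the 16 arrays in the 8 groups (horizontal axis), with replicate 1 in blue and replicate 2 in orange, open points where the miRNA was not above background, a dark line at the mean of the 2 arrays and a dotted line at the floor of 1.50. MiR-130a lay between 10.23 and 10.42 at P3 and between 7.68 and 10.50 at P7, and miR-721 between 4.17 and 5.20 at P3 and between 4.68 and 9.21 at P7.

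The order of the groups by mean level differed between members. For miR-130a the means ran from 10.37 in WT P3 MEFs in 20% O2 to 8.83 in Ercc1-/- P7 MEFs in 20% O2, and the first 5 groups were the 4 P3 groups and WT P7 MEFs in 3% O2. For miR-301a the 4 P3 groups came first, from 6.85 in Ercc1-/- MEFs in 20% O2 to 6.59 in WT MEFs in 20% O2, followed by the WT P7 groups with 6.03 and 5.94 and the Ercc1-/- P7 groups with 5.12 and 4.92. For miR-130b they ran from 4.33 to 2.45, with P3 and P7 groups mixed. Of the 7 pairs of neighbours in each order, only 2 had ranges apart for each of these members. These were Ercc1-/- P3 in 20% and 3% O2, and Ercc1-/- P3 in 3% O2 and WT P7 in 20% O2, for miR-130a. For miR-301a they were WT P3 and WT P7 in 20% O2, and WT P7 and Ercc1-/- P7 in 3% O2. For miR-130b they were Ercc1-/- P7 and WT P3 in 3% O2, and WT P7 and Ercc1-/- P3 in 3% O2. With 2 arrays per group some neighbours can lie apart by chance. The share of such pairs among all miRNAs tested was not counted, so these pairs only describe the order.

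With the 4 combinations of genotype and oxygen averaged, 1 of the 3 members tested changed from P3 to P7. MiR-301a fell by 1.19 on the log2 scale (SE 0.44, 8 arrays against 8), which is 2.28-fold, with an adjusted p of 0.039 in limma. Of all 235 miRNAs, 54.9% were called in this comparison and 32.3% were called lower, so 1 member of 3 was near the share of all miRNAs. The median change of all 235 was -0.39. The call was close to the threshold of 0.05. It was lost on leaving out any 1 of 13 of the 16 arrays, with adjusted p from 0.052 to 0.086. It was kept only without replicate 1 of WT P7 MEFs in 20% O2, without replicate 1 of Ercc1-/- P7 MEFs in 20% O2 or without replicate 2 of the latter, the dimmest array, and without that one the change was -0.76 (adjusted p 0.025). With the slide as a block the adjusted p was 0.034.

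On each slide a P7 array could be set beside the P3 array of the same genotype and oxygen. MiR-301a was lower at P7 in 7 of 8 such pairs, with differences from -3.88 to 0.02. Averaged within a slide, the difference was -0.54 on slide 1 and -1.84 on slide 2. MiR-130a was also lower in 7 of 8 pairs, from -2.64 to 0.20, with averages of -0.28 on slide 1 and -1.07 on slide 2. Its averaged change was -0.68 (SE 0.33, adjusted p 0.093, and 0.065 with the slide as a block), which is not past the threshold, and without the dimmest array it was -0.39 (adjusted p 0.076). MiR-130b, lower in 4 pairs and higher in 4, had an averaged change of 0.29 (SE 0.32, adjusted p 0.44), with 0.30 on slide 1 and 0.28 on slide 2.

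Within the single combinations no member was called between P3 and P7, and few of the 235 miRNAs were: 1.28% in WT MEFs in 20% O2, 0% in WT MEFs in 3% O2, 1.28% in Ercc1-/- MEFs in 20% O2 and 0% in Ercc1-/- MEFs in 3% O2. The changes of miR-301a were -0.56 (SE 0.89, adjusted p 0.69) and -0.77 (SE 0.89, adjusted p 0.70) in WT MEFs in 20% and 3% O2. In Ercc1-/- MEFs they were -1.93 (SE 0.89, adjusted p 0.14) and -1.50 (SE 0.89, adjusted p 0.23). Without the dimmest array the former was -0.22 (adjusted p 0.93), and without its partner -3.64 (adjusted p 0.001). In 20% O2 the latter genotype gave 0.02 on slide 1 and -3.88 on slide 2, while in 3% O2 it gave -1.61 and -1.39, so that the slides differed far less in 3% O2.

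For miR-130a the changes were -0.66 (SE 0.65, adjusted p 0.59) and -0.02 (SE 0.65, adjusted p 1.00) in WT MEFs in 20% and 3% O2. In Ercc1-/- MEFs they were -1.50 (SE 0.65, unadjusted p 0.042, adjusted p 0.12) and -0.55 (SE 0.65, adjusted p 0.55). The value in Ercc1-/- MEFs in 20% O2 was the only one of the family at an unadjusted p under 0.05 in these 4 comparisons, and it was -0.35 (adjusted p 0.91) without the dimmest array. For miR-130b the changes in WT MEFs were 0.82 (SE 0.65, adjusted p 0.58) in 20% O2 and -0.50 (SE 0.65, adjusted p 0.73) in 3% O2. In Ercc1-/- MEFs they were -0.37 (SE 0.65, adjusted p 0.65) and 1.20 (SE 0.65, adjusted p 0.20). In 3% O2 the slides gave 1.28 and 1.11 in Ercc1-/- MEFs and -0.48 and -0.52 in WT MEFs.

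**Figure D2:**
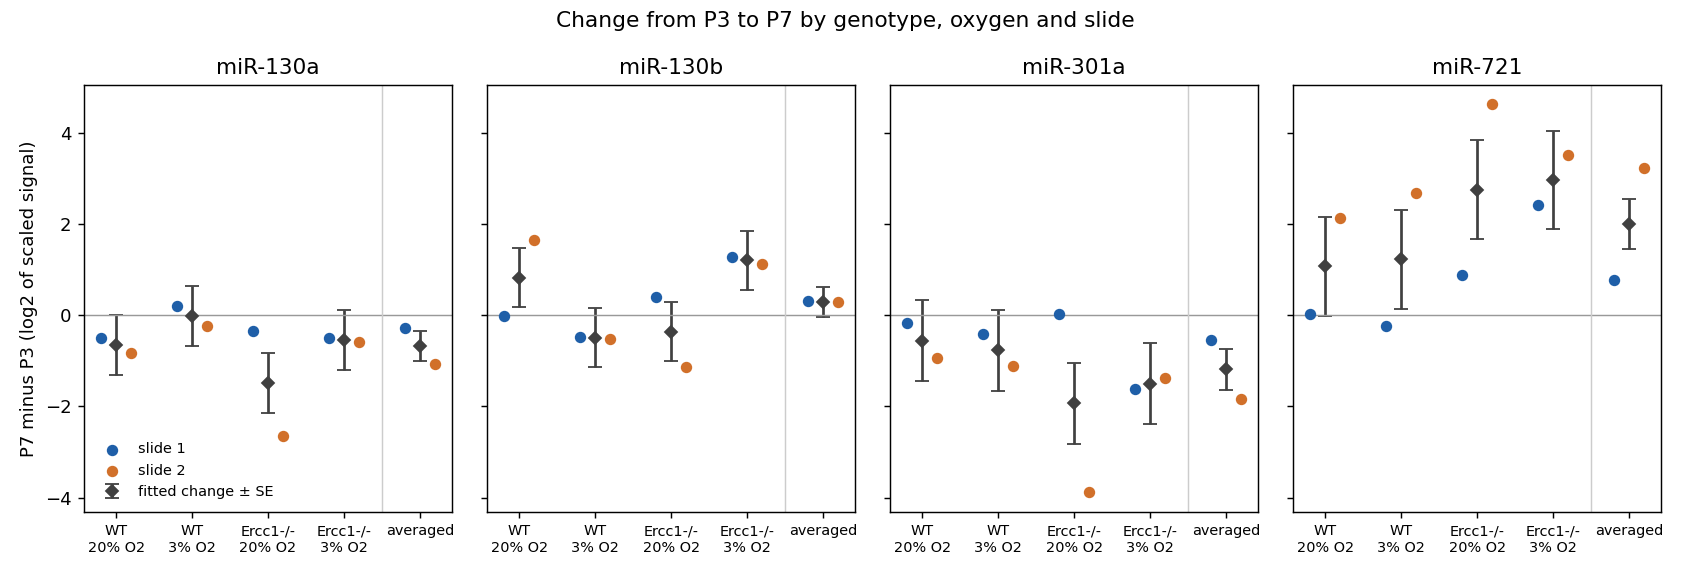
P7 minus P3 (log2 of the scaled signal, vertical axis) of miR-130a, miR-130b, miR-301a and miR-721 in each combination of genotype and oxygen and averaged over them (horizontal axis), with the fitted change and its SE as diamonds and bars, slide 1 in blue and slide 2 in orange. The averaged change was -0.68 for miR-130a, 0.29 for miR-130b, -1.19 for miR-301a and 2.00 for miR-721.

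MiR-721, which shares the seed but is no member, moved the other way from miR-301a. The study lists miR-721 as higher at P7 than at P3 in Ercc1-/- MEFs in 3% O2, from these same arrays. Its direction here is thus not independent evidence. Its levels at P3 were 5.20 and 5.16 in WT MEFs in 20% O2, 4.92 and 4.17 in WT MEFs in 3% O2, 4.87 and 4.59 in Ercc1-/- MEFs in 20% O2, and 4.61 and 4.62 in Ercc1-/- MEFs in 3% O2. At P7 they were 5.22 and 7.29 in WT MEFs in 20% O2, 4.68 and 6.85 in WT MEFs in 3% O2, 5.75 and 9.21 in Ercc1-/- MEFs in 20% O2, and 7.03 and 8.12 in Ercc1-/- MEFs in 3% O2. All P7 arrays except that of WT MEFs in 3% O2 on slide 1 were above all P3 arrays. It rose by 2.00 on average (SE 0.54, adjusted p 0.012), with 0.77 on slide 1 and 3.23 on slide 2, and by 1.57 (adjusted p 0.014) without the dimmest array. Its signal before scaling was 13.7 to 26.7 on the P3 arrays of slide 2 and 64.1 to 112 on the P7 arrays, whereas on slide 1 it was 58.2 to 77.7 at P3 and 38.5 to 95.5 at P7. In all, 22.6% of the 235 miRNAs were called higher.

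**Figure D3:**
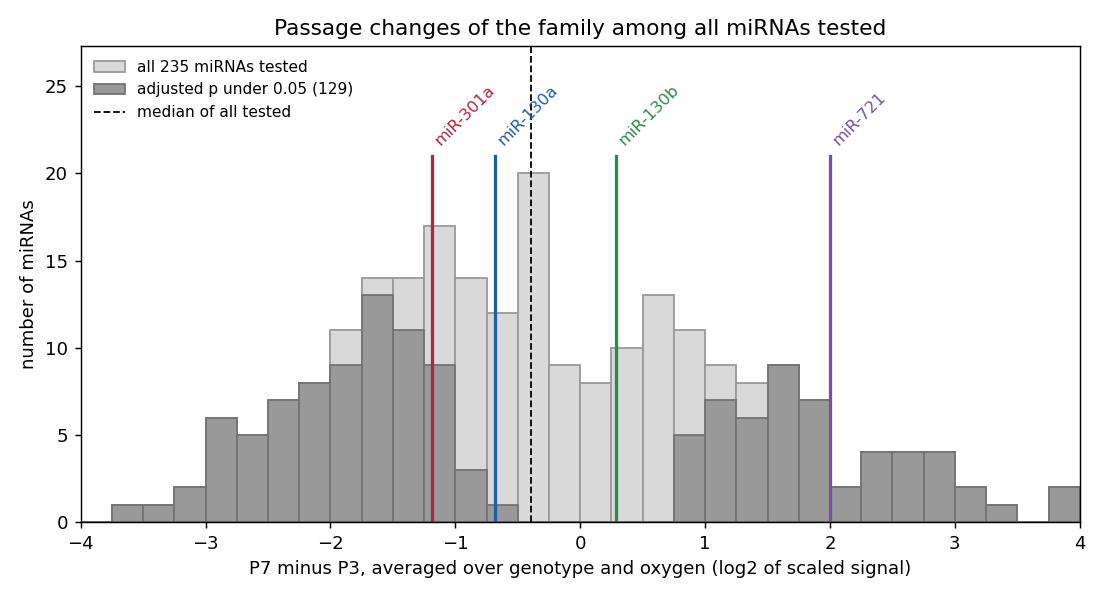
Number of miRNAs (vertical axis) by change from P3 to P7 averaged over genotype and oxygen (log2 of the scaled signal, horizontal axis) for all 235 miRNAs tested in light grey and for the 129 at an adjusted p under 0.05 in dark grey. MiR-301a (-1.19), miR-130a (-0.68) and miR-130b (0.29) lay in the middle of the distribution, around the median of -0.39, and miR-721 (2.00) lay towards its upper end.

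The levels of miR-130a and miR-301a were higher on arrays with more signal, that of miR-721 was lower on them, and that of miR-130b had no one direction. Over the 16 arrays, which share 2 slides and differ in passage, the correlation of the level with the mean signal of the array before scaling was 0.702 for miR-130a, 0.674 for miR-301a, 0.247 for miR-130b and -0.784 for miR-721. Without the dimmest array these were 0.476, 0.417, -0.241 and -0.657. Over the 8 arrays of slide 1 it was 0.567, 0.910, -0.814 and -0.856 in that order, and over the 8 of slide 2 it was 0.830, 0.877, 0.465 and -0.841. The part of signal in the passage changes was not tested.

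**Figure D4:**
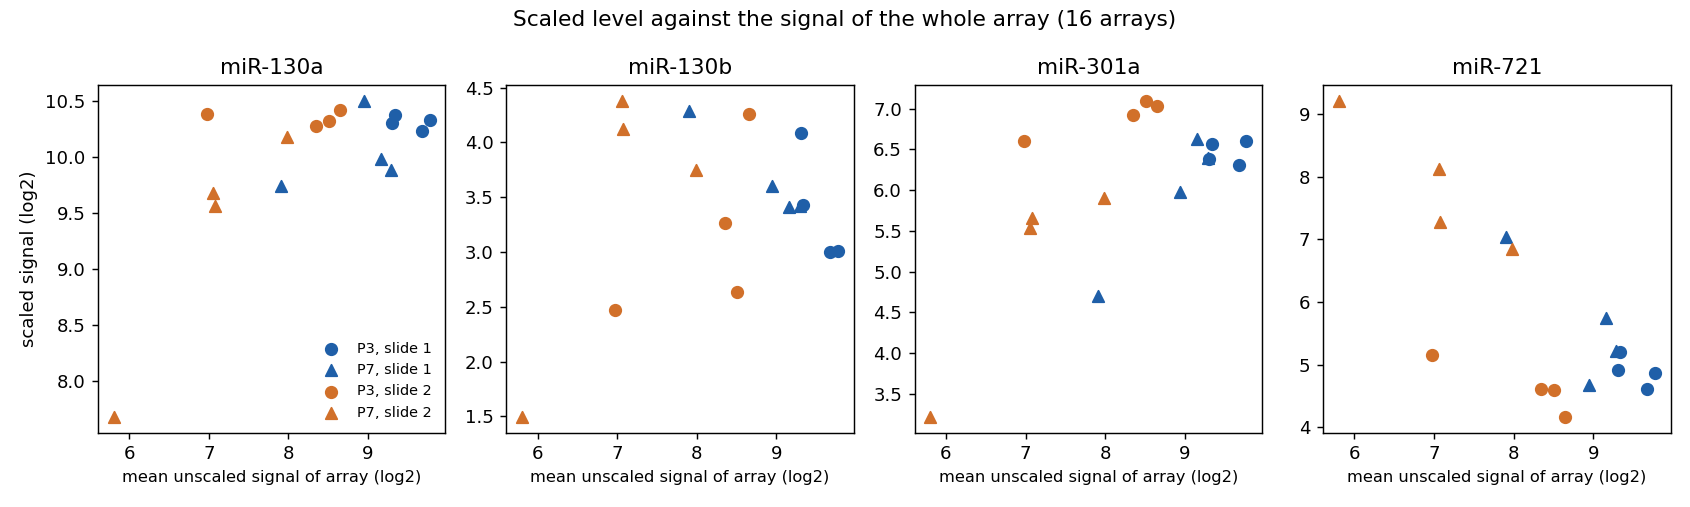
Level of miR-130a, miR-130b, miR-301a and miR-721 (log2 of the scaled signal, vertical axes) against the mean log2 signal of the whole array before scaling (horizontal axes) for the 16 arrays, with P3 as circles, P7 as triangles, slide 1 in blue and slide 2 in orange. The array with the lowest mean, 5.80, held the lowest level of miR-130a (7.68), miR-130b (1.50) and miR-301a (3.21) and the highest of miR-721 (9.21).

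Between Ercc1-/- and WT MEFs, averaged over passage and oxygen, no member was called, and 1.7% of the 235 miRNAs were. The differences were -0.42 for miR-130a (SE 0.33), -0.46 for miR-130b (SE 0.32) and -0.44 for miR-301a (SE 0.44), each with an adjusted p of 0.93, and no member had an unadjusted p under 0.05. The 95% intervals, -1.14 to 0.30 for the first, -1.17 to 0.25 for the second and -1.41 to 0.54 for the third, hold differences of more than 2-fold. Without the dimmest array, which is of the Ercc1-/- genotype, the differences were -0.13, -0.22 and -0.01. In the 4 comparisons of the genotypes at 1 passage and oxygen no member was called, where 0.851% of all miRNAs were called at P3 in 20% O2, 0% at P3 in 3% O2, 0.426% at P7 in 20% O2 and 0% at P7 in 3% O2. MiR-301a at P7 in 3% O2 is a difference that the study names, from these same arrays, so that its direction here is not independent evidence. The study also reports miR-301a as lower in that comparison by qRT-PCR, a separate measure that was not examined here. The array levels were 4.70 and 5.54 in Ercc1-/- and 5.97 and 5.91 in WT MEFs. The difference was -0.82 (SE 0.89, adjusted p 0.99), with -1.27 on slide 1 and -0.37 on slide 2.

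Between 20% and 3% O2, averaged over genotype and passage, no member was called, and 0.851% of all miRNAs were. MiR-130b had the largest difference of the family, -0.83 (SE 0.32, unadjusted p 0.026, adjusted p 1.00), with -0.43 on slide 1 and -1.23 on slide 2, and -0.59 (adjusted p 0.48) without the dimmest array. All 3 arrays on which it was not above background were in 20% O2. MiR-130a differed by -0.35 (SE 0.33) and miR-301a by -0.001 (SE 0.44), both with an adjusted p of 1.00, and for miR-301a the slides gave 0.70 and -0.71. Without the dimmest array these differences were -0.07 and 0.43, and without the other array of its group -0.64 and -0.43. In the 4 comparisons of oxygen at 1 genotype and passage 0% of all miRNAs and no member were called. In Ercc1-/- P7 MEFs miR-130b was 1.88 lower in 20% O2 by its fitted difference of -1.88 (SE 0.65, unadjusted p 0.014, adjusted p 1.00), with -0.88 on slide 1 and -2.88 on slide 2, where the array at the floor stands. Without that array it was -0.92 (adjusted p 0.37).

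The change with passage was also set against genotype and oxygen, as the difference of differences. That of Ercc1-/- minus that of WT MEFs was -0.68 (SE 0.65) for miR-130a, 0.25 (SE 0.65) for miR-130b and -1.05 (SE 0.89) for miR-301a, with adjusted p of 0.77, 0.87 and 0.77. Without the dimmest array these were -0.11, 0.73 and -0.20, and without the other array of its group -1.26, -0.22 and -1.90, the last with an adjusted p of 0.045. That in 20% minus that in 3% O2 was -0.79 (SE 0.65), -0.12 (SE 0.65) and -0.11 (SE 0.89), each with an adjusted p of 1.00. Without the dimmest array these were -0.22, 0.36 and 0.74, and without its partner -1.37, -0.60 and -0.97. With all arrays 0% of all miRNAs and no member were called in both terms, so that neither genotype nor oxygen was shown to alter the passage change of a member.

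Each of the 3 members tested had 2 probes, and both gave alike averaged passage changes: -0.70 and -0.67 for miR-130a, 0.22 and 0.31 for miR-130b, and -1.13 and -1.18 for miR-301a. The dimmer probe of miR-130b was above background on 7 arrays only. The probes did not scale alike across slides. For miR-130a the brighter probe gave 1.26 to 1.29 times the signal of the other on the 8 arrays of slide 1 and 1.76 to 1.96 times on the 8 of slide 2. For miR-301a the dimmer probe was above background on 11 of 16 arrays, and on these the ratio was 2.28 to 2.94 on 7 arrays of slide 1 and 4.39 to 5.24 on 4 of slide 2. With all 16 arrays, the comparisons between passages, genotypes and oxygen above had equal numbers of arrays of both slides on each side. The values given without 1 array are not balanced between slides in this way.

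The members were also set beside each other and beside the most alike of the other miRNAs tested, by Pearson's r over the 16 arrays, as a description of arrays that share slides and signal. MiR-130a and miR-301a had an r of 0.883, and 0.669 over the 15 arrays without the dimmest. MiR-130b had 0.434 with miR-130a and 0.234 with miR-301a, which became -0.508 and -0.591 without that array. MiR-721 had -0.840 with miR-130a and -0.872 with miR-301a, and -0.833 and -0.789 without it. The miRNAs most like miR-130a were miR-199b* (0.958), miR-103 (0.940) and miR-652 (0.932), with 0.818, 0.803 and 0.865 without the dimmest array, so that their order rests on it. Those most like miR-301a were miR-151-5p (0.960), miR-324-5p (0.942) and miR-409-5p (0.923), with 0.896, 0.861 and 0.819 without it. For miR-130b they were miR-299 (0.824), miR-19b (0.700) and miR-24 (0.686), with 0.698, 0.472 and 0.469 without it.

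Of the miRNAs whose seeds overlap that of the family by 6 bases, the miR-19 group and the group of miR-148 and miR-152, all 5 listed members were tested and 2 were called between P3 and P7, both lower. MiR-148a, which like miR-152 is known to repress the DNA methyltransferase Dnmt1, fell by 2.63 on average (SE 0.84, adjusted p 0.021), a call lost without replicate 2 of WT or of Ercc1-/- P7 MEFs in 3% O2 (adjusted p 0.051 and 0.056). MiR-148b fell by 1.36 (SE 0.48, adjusted p 0.031), a call that held under only 12 of 30 alternatives, and without the dimmest array its change was -1.11 (adjusted p 0.068). MiR-152 changed by -0.57 (adjusted p 0.24), miR-19a by -0.89 (adjusted p 0.20) and miR-19b by 0.06 (adjusted p 0.85), none past the threshold. The 2 of 5 stand beside 54.9% of all miRNAs called and 32.3% called lower. None of the 5 was called between genotypes, where 1.7% of all were, or oxygen levels, where 0.851% were. Of 9 miRNAs of the cluster from miR-17 to miR-92a and its paralogs, which are known for their part in proliferation, 8 were on the array and 7 were tested, of which 2 were called lower at P7, again beside 32.3% of all. These 7 had lower means at P7, with a median change of -0.69 beside the -0.39 of all miRNAs tested. As the latter median is negative, lower means were common among all miRNAs, and their share is not given here. MiR-19a and miR-19b, which come from the same cluster and its paralog, are not on that list, and miR-19b had no lower mean.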

How the data were processed

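RNA of 16 MEF cultures was hybridized to 1-colour Agilent mouse miRNA arrays (V2). The intensity values deposited are processed signals per spot of Agilent Feature Extraction, version 10.7.1.1 per the file headers, with the background subtracted by the software and no scaling between arrays; the deposited series table, in which the authors gave linear summed intensities per miRNA of the same arrays, served as an alternative. Spots marked as outliers were left out, spots were averaged to probes and probes to miRNAs. A probe was above background where at least a 0.5 share of its spots were, and a miRNA where any of its probes was. Each array was divided by its geometric mean of the 57 miRNAs that all 16 held above background and put back on a common scale. The study's methods normalize to the mean of each array, without limiting it to such miRNAs, and the mean of all miRNAs was an alternative. Values under 2.82 were set to it: this is the median, over arrays, of the dimmest miRNA counted as above background. In this step 308 of 611 miRNAs were above background on some array, and 235 were on both arrays of a group and were tested.

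Groups were compared with limma (version 3.58.1, R version 4.3.3), which fitted a mean for each group to all 16 arrays. It had 8 residual degrees of freedom and drew 3.58 more from the prior. Each of the 17 comparisons was adjusted by itself for its 235 miRNAs after Benjamini and Hochberg and called at an adjusted p under 0.05. The fit was checked on simulated data with independent noise between arrays, for whether planted changes were recovered on average. Those data held no shared slides or lines, so the check says nothing of error rates in these data. The number of arrays limits the precision, and p-values measure the spread between lines, slides and hybridizations together. Same-numbered arrays share a slide, so the replicate number was also fitted as a block. Deviations of same-numbered arrays correlated at 0.475 to 0.736 among P3 groups, 0.712 to 0.875 among P7 groups and -0.336 to 0.374 between P3 and P7 groups, where 7 of 16 pairs were over 0.1. Normexp used the median spot and background signals, with an offset of 50. The members, lists, rules for names and most alternatives were chosen with earlier results of these data known. The rule for names took the 4 members, miRNAs with the same seed, the overlapping-seed list and the 3 miRNAs most like each member; comparisons between 2 groups other than by passage are given with values only at an unadjusted p under 0.05 or for miR-301a at P7 in 3% O2.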

Additional observations from a re-analysis of the deposited data

Results flagged for a closer look

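MiR-130a and miR-130b had 1 array far below the other 7 P7 arrays, replicate 2 of Ercc1-/- P7 MEFs in 20% O2. The gap to the next array, as a share of the range of the 8 P7 arrays, was 0.666 for miR-130a and 0.664 for miR-130b, above Dixon's critical value for 8 values. The same array was lowest for miR-301a, but the gap there was 0.436 of the range. Chance flags about 1 in 20 such sets, but both flags are of the same array and each set joins 4 groups on 2 slides, so they are not separate draws from 1 population. This array also had the lowest mean signal of all.

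In 3 of 18 contrasts between groups, the 2 changes or differences set against each other had opposite signs, each the same on both slides. None passed the test. For miR-130b in 3% O2 the passage change was 1.28 and 1.11 in Ercc1-/- MEFs and -0.48 and -0.52 in WT MEFs, a difference of 1.70 (SE 0.92, adjusted p 0.98). For miR-130b at P7 the difference between Ercc1-/- and WT was -0.01 and -2.63 in 20% O2 and 0.68 and 0.64 in 3% O2, a difference of -1.98 (SE 0.92, adjusted p 1.00), with the array at the floor on slide 2. For miR-301a at P3 the difference between Ercc1-/- and WT was 0.03 and 0.49 in 20% O2 and -0.07 and -0.10 in 3% O2, a difference of 0.35 (SE 1.26, adjusted p 1.00).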

How the results depend on the processing

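The fall of miR-301a from P3 to P7 kept its direction under all 30 alternatives that gave a value, from -1.97 to -0.21, but its call was lost under 22 of them. Of the 14 that left out no single array it stayed called under 5: the replicate block (adjusted p 0.034), a random block for cell line (0.031), the detection call of the software (0.043), the deposited series table (0.039), and the other 3 combinations without both Ercc1-/- groups in 20% O2 (-0.94, adjusted p 0.023), which was chosen after seeing the data. The count of members called in the averaged passage comparison was 0 instead of 1 with quantile scaling, without any scaling, with the mean of all miRNAs as the scale, the 75th percentile over miRNAs above background on all arrays or over all miRNAs, a floor multiplied by 0.1, no filter on dim miRNAs, only the 57 miRNAs above background on all arrays (which left out miR-301a), normexp and the total gene signal of the software. The changes of miR-301a there were -1.97 with no scaling, -1.02 with quantile scaling, -1.49, -0.85 and -1.16 with the 3 other scales, -0.21 with normexp and -1.29 with the total gene signal.

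The median change of the 235 from P3 to P7 was -0.39 as reported, -1.14 with no scaling, -0.23 with quantile scaling, -0.64, -0.11 and -0.34 with the 3 other scales and 0.34 with normexp. Relative to that median, miR-301a lay from -0.85 to -0.75 over the 6 scales without normexp, miR-130a from -0.46 to -0.19, miR-130b from 0.66 to 0.78, miR-721 from 2.22 to 2.48 and miR-148b from -1.08 to -0.32. With normexp all positions were outside these ranges, at -0.55, -1.03, 0.098, 0.81 and 0.0021 in the same order. Lower calls were 58.9% of all calls as reported, 86.4% with no scaling and 48.4% with the 75th percentile over miRNAs above background on all arrays. The number called was 129 of 235 as reported. Of the same 235 it was 44 with no scaling, 55 under the scale of all miRNAs, 35 with normexp and 72 with the total gene signal. It was 55 of 611 with no filter and 35 of 57 with only the miRNAs above background on all arrays. The rise of miR-721 was called under 28 of 30 alternatives, and not with no scaling (1.08, adjusted p 0.14) or no filter (adjusted p 0.060). The fall of miR-148a was called under 25 of 30 and lost with no scaling (adjusted p 0.055), the mean of all miRNAs as the scale (0.070), no filter (0.11) and without replicate 2 of WT or of Ercc1-/- P7 MEFs in 3% O2 (0.051 and 0.056). That of miR-148b was called under 12 of 30.

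Differences that turned sign were not past the threshold under the alternative. With no scaling miR-130b changed from P3 to P7 by -0.36 on average and -0.33 in Ercc1-/- MEFs in 3% O2, its passage terms were -0.23 (genotype) and 0.62 (oxygen), the oxygen term of miR-301a was 0.37 and miR-19b changed by -0.86. With quantile scaling the change of miR-130a in WT MEFs in 3% O2 was 0.34, and the terms of miR-130b were -0.25 and 0.35. With the mean over all miRNAs the oxygen terms of miR-130b and miR-301a were 0.72 and 0.53, the change of miR-301a in WT MEFs in 20% O2 was 0.03, the oxygen difference of miR-721 was -0.13 and miR-19b changed by -0.24. With the 75th percentile over miRNAs above background on all arrays miR-130a changed by 0.25 in WT MEFs in 3% O2. With that over all miRNAs it changed by 0.16, the terms of miR-130b were -0.27 and 0.15 and miR-301a changed by 0.00437 in WT MEFs in 20% O2. With a floor multiplied by 0.1 the genotype term of miR-130b was -0.12. With normexp the genotype and oxygen differences were 0.10 and 0.10 for miR-130b and 0.0419 and 0.21 for miR-301a, miR-130b changed by 0.16 in WT MEFs in 3% O2 and 0.74 in Ercc1-/- MEFs in 20% O2, the terms of miR-301a were 0.14 and 0.19, its difference between genotypes at P7 in 3% O2 was 0.0113, and miR-19a and miR-148b changed by 0.34 and 0.35. With the total gene signal the genotype difference of miR-130b was 0.68, its change in WT MEFs in 3% O2 2.73 and its genotype term -4.70, and miR-19b changed by -0.0260. With the series table the oxygen difference of miR-301a was 0.00139. The cause was not tested.

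Leaving out 1 array at a time gave 0 to 2 members called for the averaged passage comparison. It gave 0 to 1 for the averaged genotype and oxygen differences and the genotype term, 0 to 3 for the passage change of Ercc1-/- MEFs in 20% O2 and for Ercc1-/- against WT at P7 in 20% O2, and 0 to 2 for oxygen in Ercc1-/- P7 MEFs. The counts above 0 other than that for the averaged passage comparison came from leaving out replicate 1 of Ercc1-/- P7 MEFs in 20% O2, which leaves the dimmest array alone in its group and assumes that it varies like the others. Results that turned sign in this way were the change of miR-130a in WT MEFs in 3% O2 (-0.18 to 0.14), that of miR-130b in Ercc1-/- MEFs in 20% O2 (-1.32 to 0.59), the genotype term (-0.22 to 0.73) and oxygen term (-0.60 to 0.36) of miR-130b, the oxygen difference (-0.43 to 0.43) and oxygen term (-0.97 to 0.74) of miR-301a, the oxygen difference of miR-721 (-0.15 to 0.72) and the change of miR-19b (-0.18 to 0.29). The replicate block changed no count of members called.

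The methods' t-test, at its threshold and 2-fold, was run on the levels as scaled and set to the floor here. The study normalizes to the mean of each array instead, so this is not a repeat of its own test. The test named 1 member, miR-130b, in P7 against P3 Ercc1-/- MEFs in 3% O2, where it named 8.94% of all 235 miRNAs. It named 1, again miR-130b, in Ercc1-/- against WT MEFs at P3 in 3% O2, where it named 2.98%. It named 0 members in the other 10 comparisons of 2 groups, and 0 in any after Benjamini-Hochberg adjustment. Among these 10 was Ercc1-/- against WT at P7 in 3% O2, where the study lists miR-301a as lower by its own t-test and 2-fold limit. With the levels used here that difference of miR-301a was 1.76-fold, which is under the limit. MiR-301b, never above background, has no measured change under any setting, and the low signal of miR-130b over background limits its values.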
